A study of Mus musculus with 10 samples.

Results

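The L1 family (Chl1, L1cam, Nrcam and Nfasc) and the contactin family (Cntn1 to Cntn6) were followed in the embryonic cortex of mice with 0, 1 or 2 mutant copies of Gatad2b. The members were picked by family, by gene symbol, with earlier results of these data known. All 10 of the 10 were found among the 31053 genes of the count tables. Each of the 10 had at least 1 UMI (a unique molecular identifier, that is, 1 counted RNA molecule) in every library. Their values were summed over the cells of an embryo, first over all cells and then within classes of cells defined by marker genes.

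Both families are cell adhesion molecules of the immunoglobulin superfamily on the surface of neurons. L1 proteins span the membrane, bind ankyrins and the spectrin skeleton inside the cell, and act in axon growth, bundling and guidance. Contactins have no cytoplasmic part: they are held in the outer leaflet by a glycolipid anchor and act through partners in the same membrane, among them the contactin-associated proteins, receptor tyrosine phosphatases and the L1 proteins themselves. In the developing cortex CHL1 is known for radial migration and thalamocortical guidance, L1CAM for the large fibre tracts, NRCAM and CHL1 as co-receptors of semaphorins with neuropilins and plexins, neurofascin for the axon initial segment and node of Ranvier, and contactin 2 (TAG-1) for early corticofugal axons.

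Cells came from dissociated cortex at E16.5 (embryonic days), with 1 droplet library (10x Genomics 3′ chemistry, version 3) for each embryo. There were 3 WT embryos, 4 Het embryos (Gatad2b stop/+) and 3 KO embryos (Gatad2b stop/stop), all on a C57BL/6N-Atm1Brd background. The stop allele is a gene trap with a lacZ cassette in an intron of Gatad2b, a subunit of the NuRD chromatin remodelling complex. It is carried in the germline, so that every cell of a mutant embryo has it, and Gatad2b RNA was still counted in KO embryos. The library names in the files carry 2 prefixes, one on all WT embryos and on Het embryo 4, the other on all KO embryos and on Het embryos 1 to 3. What the prefixes stand for is not given in the sources used here. WT and KO embryos share no prefix, so that from these groups alone the genotype and the prefix cannot be told apart. The comparison of the KO embryos with Het embryos 1 to 3, and that of Het embryo 4 with the WT embryos, each lie within 1 prefix. Values of the first kind are given beside the calls in KO against Het, and values of the second kind, which rest on 1 Het embryo, beside those in Het against WT and with no test. What the prefix as a covariate does to a call in KO against WT is given where it ends that call. In that fit only the Het group holds both prefixes. The term for the prefix therefore rests on Het embryo 4 against Het embryos 1 to 3.

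After removal of cells under 1000 UMIs or over 10% mitochondrial UMIs, 65779 of 80071 barcodes were kept, between 5147 and 8103 for each embryo, with 82872641 to 123737385 UMIs per embryo and a median of 10795 to 17077.5 UMIs per cell. Pairs of libraries shared between 4 and 19 barcodes, at most 0.325% of the smaller library. Clustering without the 10 genes gave 28 clusters, of which 11 classes had enough cells for a test in every embryo. The largest were the layer II-IV-like (14829 cells), layer V-VI-like (11762), interneuron-like (11001) and striatal inhibitory-like (6907) cells. A cluster of cells with few UMIs and no class of its own (cluster 14, median 1519 UMIs) moved with the prefix: it held 3.94% to 4.55% of the cells of WT embryos and 3.31% of Het embryo 4, and 0.563% to 1.89% of the cells of the other 6 embryos. Levels are given as CPM (UMIs of a gene per 1e6 UMIs of the same cells), and over all cells as TMM-scaled CPM, in which the totals are adjusted by the trimmed mean of M values. Gatad2b itself ranged from 131 to 139 TMM-scaled CPM in WT, from 89.8 to 95.7 in Het and from 50.9 to 57.3 in KO embryos, with no overlap between any of the groups. The log2 fold change was -0.54 in Het and -1.32 in KO embryos (edgeR quasi-likelihood test, adjusted p = 0.000756 and 1.11e-07).

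By the GENCODE annotation of GRCm38, 4 of the 10 genes are neighbours. Cntn3 (ENSMUSG00000030075, chr6:102162655-102573101, minus strand), Chl1 (ENSMUSG00000030077, chr6:103510586-103750211, plus strand), Cntn6 (ENSMUSG00000030092, chr6:104492790-104863406, plus strand) and Cntn4 (ENSMUSG00000064293, chr6:105677660-106699310, plus strand) follow each other with no other protein-coding gene between them, over 4.54 Mb of chromosome 6. Cntn5 (ENSMUSG00000039488) lies at chr9:9660891-10904775 on the minus strand, Nrcam at chr12:44328885-44601964 on the plus strand, L1cam at chrX:73853778-73896105 on the minus strand and Cntn1 at chr15:92051165-92341967 on the plus strand. Nfasc (chr1:132564690-132741797) and Cntn2 (chr1:132509427-132543256) are adjacent on the minus strand of chromosome 1.

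The promoters of Cntn3, Cntn4, Cntn5 and Cntn6 are shown because these were the 4 genes whose RNA differed most between KO and WT embryos in sums over all cells. NuRD contains proteins of the methyl-CpG binding family, and the dinucleotide CG, the site of DNA methylation, is therefore in capitals. Each sequence is the RefSeq promoter on GRCm38.p6 (all 10 members matched), from 250 bases before to 50 bases after the start of transcription, 5′ to 3′ on the strand of the gene: Cntn3 chr6:102464618-102464917 (minus), Cntn4 chr6:106118515-106118814 (plus), Cntn5 chr9:10904726-10905025 (minus) and Cntn6 chr6:104492794-104493093 (plus).
Cntn3: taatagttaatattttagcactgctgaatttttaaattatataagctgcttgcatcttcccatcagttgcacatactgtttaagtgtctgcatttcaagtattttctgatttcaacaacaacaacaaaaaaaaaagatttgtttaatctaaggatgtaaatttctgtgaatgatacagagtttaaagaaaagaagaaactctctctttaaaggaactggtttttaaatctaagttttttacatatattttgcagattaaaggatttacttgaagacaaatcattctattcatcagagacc
Cntn4: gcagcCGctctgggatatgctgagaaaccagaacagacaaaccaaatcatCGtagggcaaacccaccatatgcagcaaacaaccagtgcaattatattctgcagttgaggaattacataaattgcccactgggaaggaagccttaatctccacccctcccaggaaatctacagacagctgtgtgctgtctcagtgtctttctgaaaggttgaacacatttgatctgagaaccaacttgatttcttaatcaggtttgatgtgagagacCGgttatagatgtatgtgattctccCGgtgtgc
Cntn5: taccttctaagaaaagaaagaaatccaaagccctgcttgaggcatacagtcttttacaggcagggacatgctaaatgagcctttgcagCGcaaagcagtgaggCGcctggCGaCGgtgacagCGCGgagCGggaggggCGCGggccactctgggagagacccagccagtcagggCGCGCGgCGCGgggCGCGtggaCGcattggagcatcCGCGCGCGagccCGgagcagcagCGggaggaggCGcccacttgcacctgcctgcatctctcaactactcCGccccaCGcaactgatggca
Cntn6: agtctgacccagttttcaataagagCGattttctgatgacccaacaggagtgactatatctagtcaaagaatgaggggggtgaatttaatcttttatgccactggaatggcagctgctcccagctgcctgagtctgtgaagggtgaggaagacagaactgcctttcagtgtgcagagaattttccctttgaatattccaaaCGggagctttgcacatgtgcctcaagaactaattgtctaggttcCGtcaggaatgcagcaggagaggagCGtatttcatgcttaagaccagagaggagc

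CG reads the same on both strands and was searched alone, so that no match overlaps another. Cntn3 held 0 in its 300 bases, Cntn4 and Cntn6 held 4 each and Cntn5 held 26. Over 32851 RefSeq promoters of this length the median was 7 and 94.6% held at least 1; 5.43% held as few as Cntn3, 38.0% held 4 or fewer and 84.5% held 26 or fewer. Cntn4 has another listed start, at which the 300 bases held 12. Among the other members the first listed promoter held 7 in Nfasc, 9 in Cntn1, 13 in Chl1, 13 in Cntn2, 25 in L1cam and 37 in Nrcam. Of the 4 windows shown, those of Cntn3, Cntn4 and Cntn6 lie at RefSeq starts inside the GENCODE genes, downstream of the outermost starts given above. Their counts are those of these windows and not of the gene ends.

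In WT embryos each gene had its own distribution over the classes (mean ± SD, n = 3 embryos; UMIs count 3′ ends, so that 1 gene is compared between classes and never with another gene). Chl1 was highest in interneuron-like cells at 540 ± 29.5 CPM, followed by layer V-VI-like cells at 493 ± 14.1 CPM, with no overlap between these embryos, and then by Cajal-Retzius-like cells at 278 CPM and layer II-IV-like cells at 228 CPM, whose ranges overlapped. L1cam was carried by all classes of neurons, at 162 CPM in layer V-VI-like, 131 CPM in layer II-IV-like, 121 CPM in Cajal-Retzius-like, 118 CPM in striatal inhibitory-like and 92.6 CPM in interneuron-like cells, of which the striatal inhibitory-like range overlapped those of layer II-IV-like and Cajal-Retzius-like cells. Nrcam stood at 188 CPM in layer V-VI-like, 149 CPM in interneuron-like and 118 CPM in radial glia-like cells. Nfasc stood at 284 CPM in Cajal-Retzius-like, 137 CPM in layer II-IV-like and 84.8 CPM in layer V-VI-like cells. For Nrcam and Nfasc the WT ranges of the classes named did not overlap.

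Among the contactins, Cntn2 was highest in layer II-IV-like cells, with 565 CPM against 268 CPM in layer V-VI-like cells. Of the latter, cluster 7, led by Crym and Grp, had a WT mean of 441 CPM. Clusters 3 and 5 had 208 and 204 CPM. Cntn1 was highest in radial glia-like cells at 70.8 CPM, above layer V-VI-like cells at 51.7 CPM, while layer II-IV-like cells had 13.0 CPM. Cntn5 was shared by Cajal-Retzius-like (50.1 CPM) and striatal inhibitory-like cells (48.0 CPM), whose ranges overlapped, and layer V-VI-like (23.7 CPM) and interneuron-like cells (22.0 CPM) also overlapped. Cntn3, Cntn4 and Cntn6, with few UMIs each, had their high levels in few classes. Cntn6 stood at 7.45 CPM in interneuron-like and 6.55 CPM in layer V-VI-like cells, which overlapped, and at 0.142 CPM in layer II-IV-like cells. Cntn4 stood at 8.83 CPM in interneuron-like cells and 1.88 CPM in layer V-VI-like cells, which did not overlap. Cntn3 stood at 5.74 CPM in Cajal-Retzius-like, 4.38 CPM in interneuron-like and 4.07 CPM in layer V-VI-like cells, of which the last pair overlapped. Within the interneuron-like class the WT means of Cntn4 (26.3 CPM), Cntn6 (22.0 CPM) and Cntn5 (79.0 CPM) were high in cluster 15, the cluster led by Sst, against 2.56 CPM of Cntn4 and 0.837 CPM of Cntn6 in cluster 9, led by Adarb2 and Htr3a. With finer clusters (resolution 0.8) 6 of the 10 genes kept their highest class, and Chl1, Cntn1 and Cntn6 were then highest in layer V-VI-like cells and Cntn5 in striatal inhibitory-like cells. Without integration Cntn6 was highest in layer V-VI-like cells, and without marked doublets Cntn3 was highest in interneuron-like cells.

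**Figure D1:**
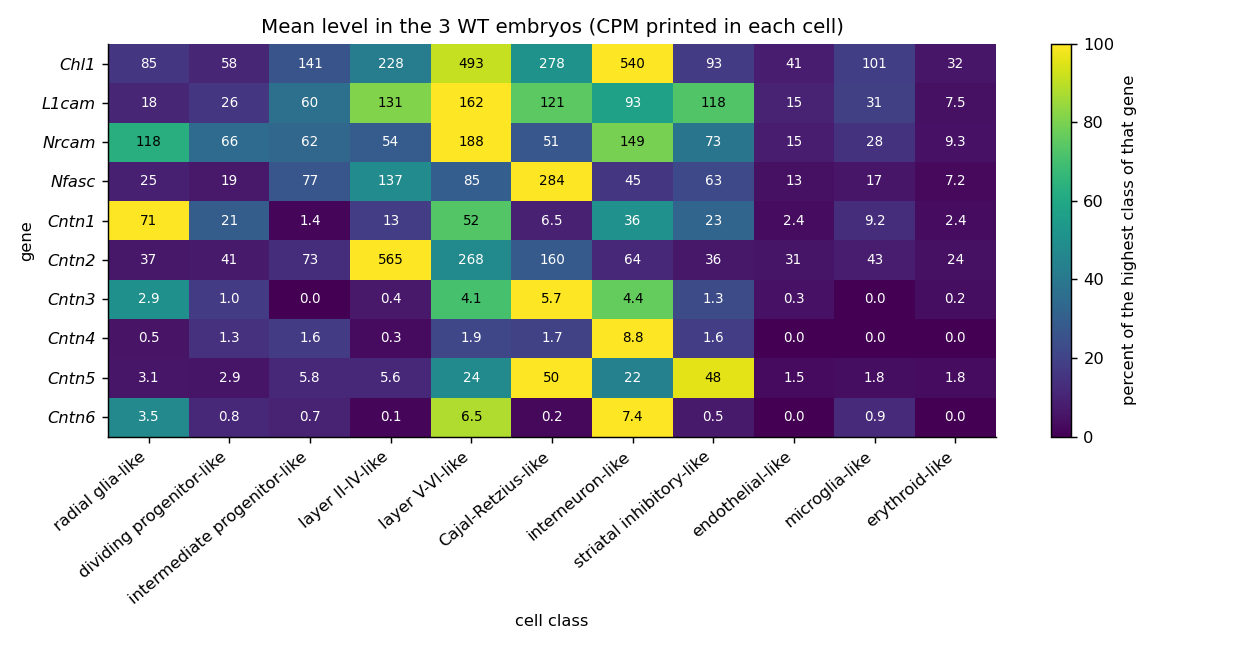
Mean level of each gene (rows) in each class (columns) over the 3 WT embryos, printed as CPM and coloured as percent of the highest class of that gene. Chl1 peaks at 540 CPM in interneuron-like cells, Cntn2 at 565 CPM in layer II-IV-like cells, Nfasc at 284 CPM in Cajal-Retzius-like cells and Cntn1 at 70.8 CPM in radial glia-like cells.

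The genes with the most similar pattern over the clusters differed between members. Over the 27 clusters with at least 200 cells (UMIs of the WT embryos summed, log2 of CPM + 1, 12996 genes with at least 10 CPM in their highest cluster), the nearest to Chl1 were Gpr162 (Pearson's r = 0.91), Ank3 (0.91) and Pclo (0.90). Those nearest to L1cam were Camsap3 (0.97), Pak7 (0.97) and Celf5 (0.96), those nearest to Nrcam were Adgrb3 (0.93), Mmp16 (0.90) and Ctnnd2 (0.90), and those nearest to Nfasc were Edil3 (0.91), Zfp341 (0.91) and Lysmd4 (0.91). For Cntn1 they were Plppr5 (0.87), Grm5 (0.85) and Spag6l (0.85), for Cntn2 Kcnj11 (0.90), Znrf2 (0.90) and Bhlhe22 (0.89), and for Cntn5 Scn9a (0.91), Lingo2 (0.90) and Radil (0.89). The clusters come from the same 3 libraries and the values are descriptions only. Cntn3, Cntn4 and Cntn6 were under 10 CPM over all cells and were left out.

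Over all cells of an embryo, the question was which of the 10 genes follow the dose of Gatad2b. The 4 members called were contactins 3 to 6, all lower in KO than in WT embryos, whereas the L1 genes and contactins 1 and 2 were not called. Cntn6 was at 2.80, 4.64 and 3.31 TMM-scaled CPM in the WT, 1.33, 1.85, 2.94 and 1.89 in the Het and 0.667, 0.898 and 1.47 in the KO embryos. Cntn3 was at 2.69, 3.57 and 2.89 in WT, 2.29, 2.11, 2.70 and 2.92 in Het and 1.2, 1.07 and 1.85 in KO embryos. The KO embryos lay below every WT embryo for both genes, and for Cntn3 also below every Het embryo. Cntn5 was at 18.1, 21.3 and 21.6 in WT, 12.3, 15.7, 15.1 and 15.3 in Het and 11.9, 8.99 and 12.5 in KO embryos, with the Het embryos between the other groups apart from an overlap with KO. Cntn4 was at 1.42, 3.13 and 2.03 in WT, 0.540, 1.58, 1.64 and 1.64 in Het and 0.685, 0.984 and 1.14 in KO embryos.

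In KO against WT the log2 fold change ± SE was -1.83 ± 0.32 for Cntn6 (adjusted p = 0.00164), -1.23 ± 0.39 for Cntn4 (0.0283), -1.15 ± 0.20 for Cntn3 (0.00162) and -0.86 ± 0.12 for Cntn5 (0.000452). A call here and below is an adjusted p under 0.05 with an absolute log2 fold change over 0.25 in edgeR's quasi-likelihood test, adjusted over all genes tested. A difference between classes or clusters passes at an adjusted p under 0.05, with no limit on its size. The UMIs behind these values, WT against KO, were 1196 against 291 for Cntn6, 735 against 267 for Cntn4, 1014 against 400 for Cntn3 and 6698 against 3249 for Cntn5. By count, 4 of 10 members were called, all lower, where 24.5% of the 17647 genes tested were called and 12.5% were called lower. The median over the members was -0.17, against -0.01 over all genes. In such sums, fewer cells of a type and less RNA per cell cannot be told apart. The 4 calls were lost with the prefix as a covariate (Cntn6 -1.94, adjusted p = 0.0664; Cntn5 -0.77, 0.0524; Cntn3 -0.84, 0.154; Cntn4 -0.85, 0.488), a fit in which 8.31% of all genes were called, and that of Cntn4 was also lost without WT embryo 2 (-0.89), WT embryo 3 (-1.29), KO embryo 1 (-1.05) or KO embryo 2 (-1.27). Without cluster 14 the same 4 genes were called, at -1.81, -1.22, -1.10 and -0.85 for Cntn6, Cntn4, Cntn3 and Cntn5. With each class given equal weight, erythroid-like, microglia-like and endothelial-like cells included, log2 of the mean CPM + 1 was tested with limma and not edgeR. The added 1 makes changes of genes with few counts smaller, so that these sizes are not comparable with those above. Cntn5 (-0.55) and Cntn6 (-0.52) stayed called, and Cntn3 (-0.25) and Cntn4 (-0.04) were not. By limma 3 other members were called lower (Cntn1 -0.57, adjusted p = 0.0361, Chl1 -0.31, 0.0216, and Nfasc -0.27, 0.0216). In that fit 13.1% of all genes were called and their median was -0.05.

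The 6 other members were within 0.2 log2 units of WT in KO embryos and none passed the test, apart from the 3 just named when each class had equal weight. Chl1 was at 290 to 344 TMM-scaled CPM in WT and 264 to 283 in KO embryos (log2 fold change -0.17 ± 0.08, adjusted p = 0.107). Cntn2 was at 231 to 271 in WT and 220 to 234 in KO embryos (-0.17 ± 0.06, 0.0584). Cntn1 (-0.12 ± 0.08), Nrcam (-0.09 ± 0.05), Nfasc (-0.03 ± 0.05) and L1cam (0.01 ± 0.05) had adjusted p values from 0.208 to 0.913. In Het against WT embryos 1 of 10 members was called, Cntn5 at -0.47 ± 0.11 (adjusted p = 0.0433), where 2.98% of all genes were called. All 10 members had a negative sign in that comparison, as 49.8% of all genes did, and the members' median was -0.16 against 0.00. The sign of Nrcam was positive in Het embryo 4 against WT (0.04) and that of Cntn3 with classes of equal weight (0.05). The call of Cntn5 was lost without any of WT embryos 1, 2 and 3, Het embryos 1, 2 and 3, or KO embryos 1 and 3, with values from -0.56 to -0.41, and Het embryo 4 alone was at -0.41. In KO against Het embryos 1 of 10 was called, Cntn3 at -0.86 ± 0.19 (0.0203), where 5.50% of all genes were called. Against Het embryos 1 to 3 alone, within 1 prefix, Cntn3 was also called (-0.78, adjusted p = 0.0443) and Cntn6 (-1.01, 0.0979), Cntn4 (-0.42, 0.547) and Cntn5 (-0.37, 0.110) were not. The call of Cntn3 in KO against Het was lost without Het embryo 3 (-0.83), KO embryo 1 (-0.77) or KO embryo 2 (-0.72), and with classes of equal weight (-0.30, adjusted p = 0.45).

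**Figure D2:**
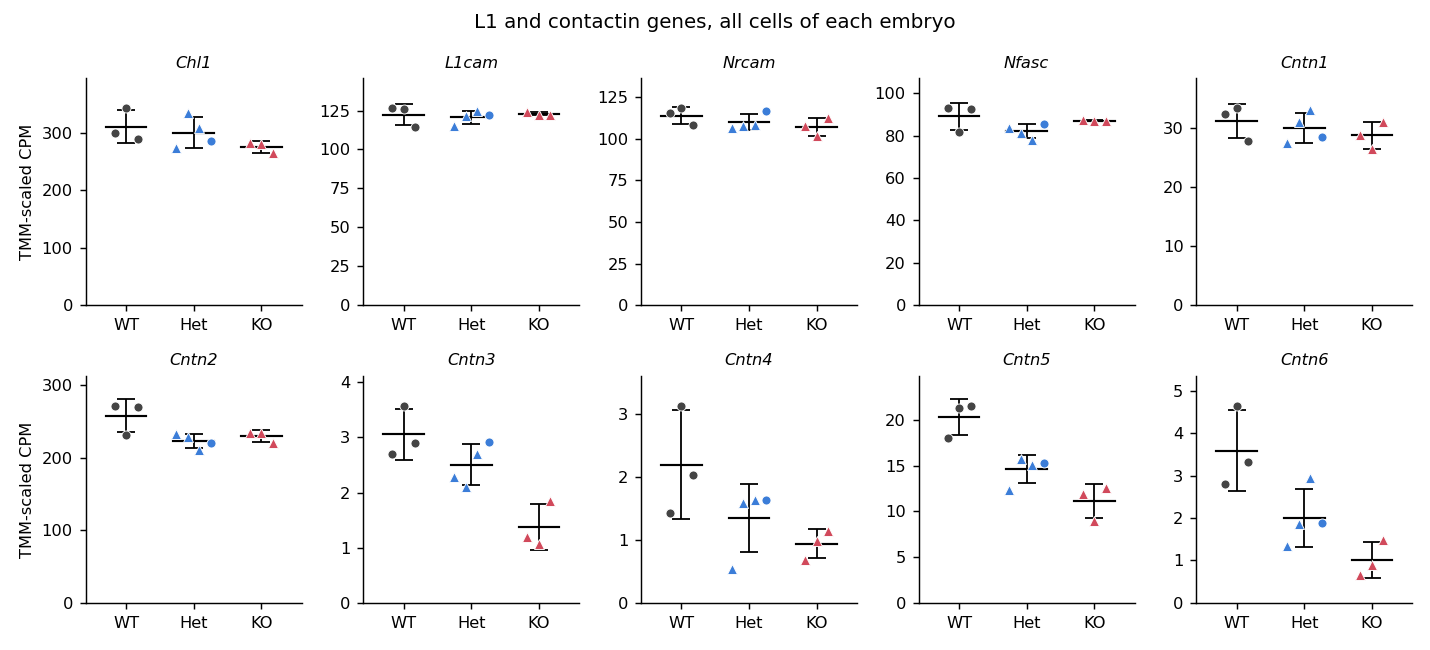
TMM-scaled CPM of each gene over all cells of an embryo, with 1 point per embryo and the mean and SD of each group as bars; circles and triangles are the 2 library-name prefixes. KO embryos lie below all WT embryos for Cntn3 (1.07 to 1.85 against 2.69 to 3.57), Cntn5 and Cntn6, while L1cam and Nfasc overlap between the groups.

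The same 4 contactins had larger log2 fold changes within layer V-VI-like cells, which hold the corticofugal projection neurons. Cntn6 was at 6.03, 7.11 and 6.51 CPM in the WT embryos, 2.02, 1.36, 3.02 and 0.819 in the Het embryos and 0.0605, 0.144 and 0.197 in the KO embryos. In UMIs this was 171, 235 and 142 in WT, 52, 33, 72 and 29 in Het and 2, 3 and 5 in KO embryos. The 3 groups did not overlap, and 10 UMIs were left in all KO embryos against 548 in WT. Relative to the UMIs of the class, WT over KO was 52.2 (95% exact interval 28.2 to 109, counting error only). The fitted log2 fold change was -5.60 ± 0.48 in KO (adjusted p = 1.40e-06), -1.88 ± 0.27 in Het (0.00422) and -3.71 ± 0.56 in KO against Het (0.00047). Contactin 6 is known for the growth of corticospinal and other projection axons.

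Cntn4, whose protein is known for axon targeting with amyloid precursor family proteins, followed the same order. It was at 1.48, 2.75 and 1.42 CPM in WT, 0.155, 0.867, 0.587 and 0.423 in Het and 0.0303, 0.192 and 0.118 in KO embryos, from 42, 91 and 31 UMIs, 4, 21, 14 and 15 UMIs, and 1, 4 and 3 UMIs. Every Het embryo was below every WT embryo, and the Het and KO ranges met only at Het embryo 1. WT over KO was 19.5 (95% exact interval 9.68 to 46.0), and the log2 fold change was -4.14 ± 0.58 in KO (adjusted p = 0.000114) and -1.92 ± 0.38 in Het embryos (0.0218). The Het call was lost without WT embryo 2 (-1.50), Het embryo 1 (-1.64) or Het embryo 3 (-2.0).

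Cntn5 fell in graded steps, from 22.8, 24.6 and 23.8 CPM in WT over 15.4, 18.0, 16.2 and 16.6 in Het to 8.96, 6.71 and 9.21 in KO embryos. No group overlapped another, with log2 fold changes of -1.45 ± 0.10 in KO (adjusted p = 2.02e-07), -0.50 ± 0.08 in Het (0.00907; -0.46 and not called without WT embryo 2) and -0.95 ± 0.09 in KO against Het (1.62e-05). Cntn3 was at 3.74, 4.27 and 4.21 CPM in WT, 4.27, 3.18, 3.52 and 3.02 in Het and 1.54, 1.34 and 1.89 in KO embryos. Here the Het embryos overlapped WT and only the KO embryos stood apart, at -1.30 ± 0.18 against WT (8.76e-05) and -1.10 ± 0.17 against Het (0.000599).

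The 4 falls in KO against WT were called in each of the 21 alternative settings, leaving out of each embryo included, with ranges of -6.98 to -5.18 for Cntn6, -5.44 to -3.59 for Cntn4, -1.64 to -1.34 for Cntn5 and -1.58 to -1.21 for Cntn3. With the prefix as a covariate they were -6.98, -4.47, -1.46 and -1.58. Within 1 prefix, KO embryos against Het embryos 1 to 3 gave -4.00 for Cntn6 (adjusted p = 5.77e-05), -1.17 for Cntn3 (0.00083) and -0.95 for Cntn5 (5.98e-05). Cntn4 had too few counts for a test there. Het embryo 4 alone against WT gave -2.98 for Cntn6, -2.15 for Cntn4, -0.50 for Cntn5 and -0.41 for Cntn3. In Het against WT the prefix as a covariate ended the calls of Cntn4 (-2.16) and Cntn5 (-0.50). Cntn1, a contactin of axons and of the node of Ranvier, was 57.3, 50.1 and 47.7 CPM in WT, 60.5, 53.4, 55.5 and 47.7 in Het and 57.5, 62.8 and 64.2 in KO embryos. It was called higher in KO (0.30 ± 0.08, 0.0142), but not once the prefix was a covariate (0.04), nor without WT embryo 2 (0.28) or WT embryo 3 (0.24). In all, 5 of 10 members were called in KO against WT in this class (4 lower, 1 higher) where 24.3% of 14248 genes were, 3 of 10 in Het against WT where 1.91% were, and 3 of 10 in KO against Het where 9.66% were. The medians of the members were -0.07, -0.08 and -0.04, against 0.00 over all genes. L1cam, at 0.18 ± 0.05, had an adjusted p of 0.0104 but a change under 0.25, and Chl1, Nrcam, Nfasc and Cntn2 did not pass (-0.09 to 0.12).

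**Figure D3:**
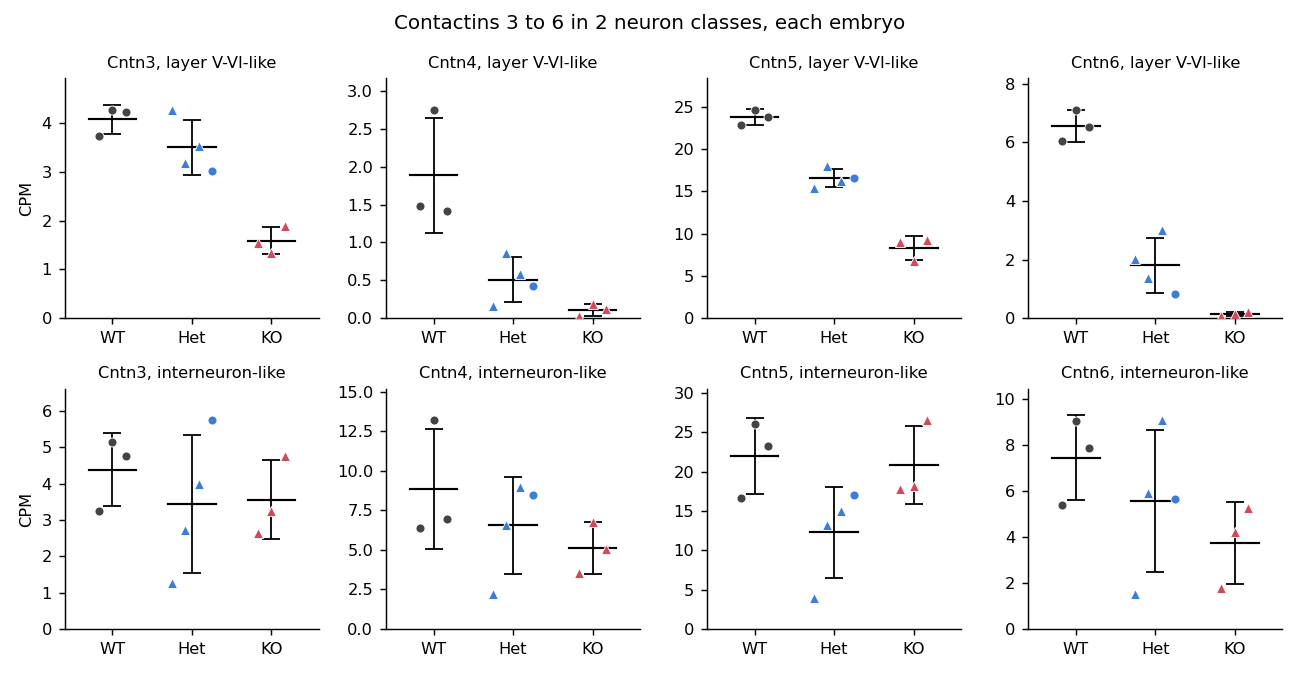
CPM of contactins 3 to 6 in layer V-VI-like cells (top) and interneuron-like cells (bottom), 1 point per embryo, with the mean and SD of each group; circles and triangles are the 2 library-name prefixes. In layer V-VI-like cells the KO embryos are below all others (Cntn6 0.0605 to 0.197 CPM against 6.03 to 7.11 in WT), apart from Cntn4 in Het embryo 1, whereas in interneuron-like cells the groups overlap for Cntn3, Cntn4 and Cntn5. For Cntn6 the KO embryos there (1.77 to 5.25 CPM) are below WT (5.41 to 9.04 CPM), and the Het embryos overlap both.

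The class is made of 3 clusters, led by Nrip1, Ldb2 and Fezf2 (cluster 3, 5082 cells), by Hs3st4 and Tle4 (cluster 5, 4049 cells), and by Crym and Grp (cluster 7, 2631 cells). Cluster 3 also carried upper-layer markers, and at the finer resolution its cells were divided between the layer V-VI-like and layer II-IV-like classes. Lower counts of Cntn6 were seen in each: 427, 156 and 5 UMIs in WT, Het and KO in cluster 3, 88, 20 and 2 in cluster 5, and 33, 10 and 3 in cluster 7. Cntn4 had 87, 23 and 2 UMIs in cluster 3, 53, 22 and 5 in cluster 5, and 24, 9 and 1 in cluster 7. In cluster 11, which has no class and is led by Inhba and Nr4a2, Cntn6 had 98, 40 and 0 UMIs and Cntn4 had 40, 15 and 0. Cntn5 did not follow in every cluster. It went from a mean of 24.7 CPM in WT to 4.79 in KO embryos in cluster 3 (-2.28 ± 0.18, adjusted p = 6.90e-08) and from 37.6 to 12.7 in cluster 5 (-1.46 ± 0.13, 4.39e-08), but was 8.94 ± 4.61 and 9.43 ± 2.64 CPM (SD, n = 3) in cluster 7. Cntn3 fell in cluster 3 (-1.25 ± 0.20, 0.000206) and cluster 7 (-1.53 ± 0.31, 0.00243).

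Chl1 was not called over the whole class (476 to 505 CPM in KO, 477 to 502 in WT embryos), and its clusters moved in opposite directions. In cluster 3 Chl1 was at 385, 416 and 385 CPM in WT, 308, 402, 383 and 294 in Het and 280, 292 and 284 in KO embryos. In cluster 5 it was at 692, 680 and 648 CPM in WT, 771, 658, 712 and 768 in Het and 886, 928 and 962 in KO embryos. KO embryos were thus below all WT and Het embryos in the first and above all of them in the second. The log2 fold change was -0.43 ± 0.09 in cluster 3 (adjusted p = 0.00236), 0.53 ± 0.07 in cluster 5 (6.07e-06) and -0.48 ± 0.12 in cluster 7 (0.00959). By the test of the difference itself, cluster 3 minus cluster 5 was -0.95 ± 0.10 (2.94e-07), cluster 5 minus cluster 7 was 1.02 ± 0.13 (1.17e-05) and cluster 3 minus cluster 7 was 0.06 ± 0.08, which did not pass.

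Nrcam also fell in cluster 3 and not in cluster 5, from 192, 176 and 192 CPM in WT to 104, 125 and 138 in KO embryos in cluster 3 (-0.57 ± 0.07, adjusted p = 1.32e-05), against 310, 279 and 316 in WT, 341, 303, 295 and 315 in Het and 318, 332 and 377 in KO embryos in cluster 5 (0.25 ± 0.07, 0.0106). The KO embryos lay above WT in cluster 5, and Het embryo 1 lay among them. The difference between the clusters was -0.82 ± 0.06 (6.62e-10). In cluster 7, unlike Chl1, Nrcam was not called (0.12 ± 0.09), and cluster 3 minus cluster 7 was -0.70 ± 0.09 (6.28e-05). Cntn1 had a difference of -0.59 ± 0.08 (1.06e-05), with means of 51.2 and 50.3 CPM in cluster 3 and 69.0 and 99.1 CPM in cluster 5 for WT and KO. Cntn2 went the other way, with 206, 208 and 198 CPM in WT and 121, 119 and 112 in KO embryos in cluster 5 (-0.73 ± 0.06, 7.10e-08) against means of 208 and 212 CPM in cluster 3, a difference of 0.83 ± 0.08 (1.06e-07). Cntn5 differed by -0.80 ± 0.17 (0.00209) between clusters 3 and 5, by -2.35 ± 0.45 (0.00245) between clusters 3 and 7 and by -1.51 ± 0.38 (0.0139) between clusters 5 and 7. Between clusters 5 and 7, Cntn2 (-0.77 ± 0.10, 1.80e-05) and Cntn1 (0.44 ± 0.13, 0.03) also differed. The number of members called was 6 in cluster 3 where 24.0% of all genes were called, 7 in cluster 5 where 23.5% were, and 2 in cluster 7 where 16.4% were. Of the 10 members, 5 differed between clusters 3 and 5, where 8.78% of all genes did, 2 between clusters 3 and 7, where 4.85% did, and 4 between clusters 5 and 7, where 8.66% did. The tests in single clusters were added after the data were seen, and the prefix was not tested in them.

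**Figure D4:**
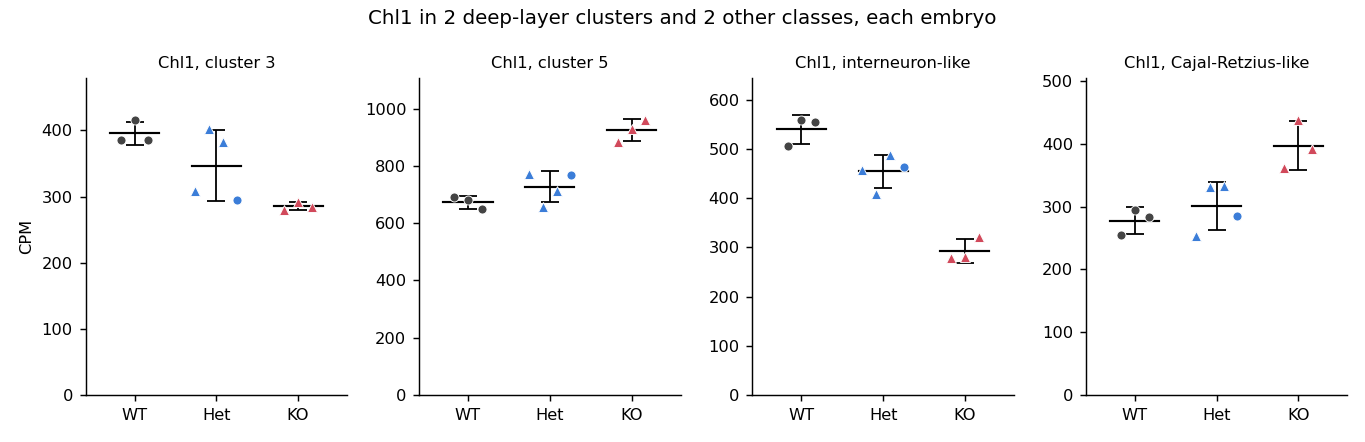
CPM of Chl1 in 4 sets of cells, 1 point per embryo, with the mean and SD of each group; circles and triangles are the 2 library-name prefixes. KO embryos are lowest in cluster 3 (280 to 292 CPM) and in interneuron-like cells (279 to 322 CPM), and highest in cluster 5 (886 to 962 CPM) and in Cajal-Retzius-like cells (361 to 439 CPM).

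In layer II-IV-like cells 3 genes fell in KO embryos without overlap and 1 with few counts was also called. Cntn5 was at 4.02, 5.81 and 7.03 CPM in WT, 2.25, 3.53, 2.12 and 1.92 in Het and 1.33, 0.606 and 0.669 in KO embryos, with 449 UMIs in WT and 65 in KO. No group overlapped another. WT over KO was 6.21 (95% exact interval 4.78 to 8.19), the log2 fold change was -2.61 ± 0.30 in KO (adjusted p = 7.63e-06), -1.16 ± 0.24 in Het (0.00575) and -1.45 ± 0.32 in KO against Het (0.00667), and within 1 prefix KO embryos were at -1.56 against Het embryos 1 to 3 (0.00142) and Het embryo 4 at -1.51 against WT. Cntn1 was at 11.9, 13.6 and 13.4 CPM in WT, 8.64, 11.2, 8.80 and 8.67 in Het and 6.18, 6.92 and 7.27 in KO embryos, again with separate groups. Its change was -0.89 ± 0.11 in KO (1.29e-05), -0.44 ± 0.10 in Het (0.00892; -0.42 and not called without WT embryo 3) and -0.45 ± 0.11 in KO against Het (0.0102; -0.40 and not called without KO embryo 1). Within 1 prefix it was -0.49 in KO against Het embryos 1 to 3 (0.00867) and -0.55 in Het embryo 4 against WT. Nrcam was at 55.0, 55.1 and 52.8 CPM in WT, 41.4, 52.9, 50.4 and 45.1 in Het and 42.9, 38.9 and 45.3 in KO embryos (-0.32 ± 0.08, 0.00429). The KO embryos were below WT, and the Het embryos spanned the range between them.

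Cntn3 rested on 31 UMIs in WT and 8 in KO embryos (WT over KO 3.48, 95% exact interval 1.57 to 8.77). It was called at -1.73 ± 0.62 (adjusted p = 0.037), but not without any of WT embryos 2 and 3 and KO embryos 1, 2 and 3, at -2.12 to -1.31, nor with the prefix as a covariate (-0.75). In all, 4 of the 8 members tested were called in KO against WT where 29.8% of 13852 genes were, 2 of 8 in Het against WT where 7.88% were, and 2 of 8 in KO against Het where 9.98% were. The medians of the members were -0.24, -0.17 and -0.06, against -0.01, 0.00 and 0.00 over all genes. Chl1 (0.07), L1cam (0.06) and Nfasc (0.06) did not pass, and Cntn2 (-0.16 ± 0.05, 0.014) stayed under the size of a call.

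The class joins cluster 0, led by Pdzrn3 and Unc5d, and cluster 2, with Cdh12 among its leading genes, and the balance between them differed: cluster 2 held 2707 and cluster 0 held 2587 WT cells, against 1407 and 2598 KO cells. Within cluster 2 Cntn5 went from a mean of 8.61 to 0.812 CPM (-3.33 ± 0.36, adjusted p = 1.82e-06), Cntn1 from 20.0 to 13.0 CPM (-0.60 ± 0.12, 0.000697), Nrcam from 72.3 to 51.6 CPM (-0.46 ± 0.06, 2.73e-05) and Cntn2 from 570 to 432 CPM (-0.37 ± 0.05, 2.05e-05). In cluster 0 none of the 7 members tested was called by edgeR in the same test, 1 of them, Nrcam, had an unadjusted p under 0.05 (0.35 ± 0.14, adjusted p = 0.0585), and the levels of Cntn5 (1.42 and 0.917 CPM) and Cntn1 (3.06 and 2.47 CPM) were low in both genotypes. The change in cluster 0 minus that in cluster 2 was 2.78 ± 0.56 for Cntn5 (0.000993), 0.80 ± 0.11 for Nrcam (9.99e-06), 0.61 ± 0.09 for Chl1 (1.14e-05), 0.37 ± 0.04 for Cntn2 (2.94e-07) and 0.17 ± 0.05 for Nfasc (0.0424), that is, 5 of the 7 members tested, where 8.97% of all genes differed. Called in the single clusters were 4 members in cluster 2, where 27.0% of all genes were, and 0 in cluster 0, where 26.0% were. At the finer resolution, where part of cluster 3 joins the class, Cntn5 was at -0.79 in KO against WT and still called and Cntn1 at -0.39 and not called. There the changes of Het against WT were -0.50 for Cntn5 (adjusted p = 0.092) and -0.03 for Cntn1 (0.923), and those of KO against Het were -0.29 (0.349) and -0.36 (0.147), none of them called. Without integration Cntn1 in Het against WT was at -0.21 (0.225).

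In interneuron-like cells, which migrate into the cortex from the ganglionic eminences, Chl1 fell in KO embryos. It was at 506, 560 and 554 CPM in WT, 457, 409, 489 and 463 in Het and 279, 280 and 322 in KO embryos, so that the groups did not overlap. The log2 fold change was -0.87 ± 0.07 in KO against WT (adjusted p = 7.36e-05) and -0.64 ± 0.07 in KO against Het (0.00123), and both were called in every alternative setting tried. It was -0.84 with the prefix as a covariate (0.034, in a fit that called 0.113% of all genes) and -0.64 against Het embryos 1 to 3 within 1 prefix (0.0107). Clusters 1, 9 and 15 are described here and held most, though not all, of the cells of the class. In WT embryo 1 they held 223, 63 and 62 of its 862 Cntn2 UMIs. Much of the Cntn2 level of the class there thus came from other cells. Chl1 fell in the cluster led by Maf, Nxph1 and Lhx6 (cluster 1, from a mean of 667 ± 36.0 to 312 ± 36.5 CPM, -1.07 ± 0.09, 2.36e-07) and in that led by Adarb2 and Htr3a (cluster 9, from 320 ± 61.5 to 149 ± 6.10 CPM, -1.07 ± 0.12, 9.89e-06; SD, n = 3). In the cluster led by Sst (cluster 15) it went from 499 ± 31.8 to 378 ± 37.4 CPM and was not called (-0.38 ± 0.09, 0.121). Cluster 1 had 6 members called, where 16.6% of all genes were, and cluster 9 had 2, Chl1 and Cntn2, where 6.47% were. Cluster 15 had 0 by edgeR (4 of the 10, Chl1, Cntn2, Cntn4 and Cntn6, at an unadjusted p under 0.05), where 0.0184% were. Its KO embryos were below all WT embryos for Cntn4, with 33.6, 24.0 and 21.1 CPM in WT and 3.33, 18.3 and 12.7 in KO (-1.09 ± 0.39, adjusted p = 0.283). So they were for Cntn6, with 26.5, 14.1 and 25.4 CPM in WT and 3.33, 9.16 and 11.3 in KO (-1.26 ± 0.46, 0.288). The Het embryos overlapped both groups. Cntn2 fell in clusters 1 and 9, from means of 35.2 to 18.5 CPM in cluster 1 (-0.90 ± 0.14, 0.000258) and from 36.9 to 22.1 CPM in cluster 9 (-0.73 ± 0.16, 0.00808). The others called in cluster 1 were Cntn3 (-1.83 ± 0.48, 0.0128), Cntn1 (-0.90 ± 0.21, 0.0054) and L1cam (-0.32 ± 0.10, 0.031), which were lower, and Nrcam (0.48 ± 0.08, 0.000425), which was higher. In erythroid-like cells, which should not express it, Cntn2 was at 19.3, 16.485 and 37.4 CPM in WT and 2.73, 4.56 and 7.05 CPM in KO embryos, lower in KO as in clusters 1 and 9 although not called (-0.62 ± 0.39, 0.361). The part of free RNA in these falls was not tested.

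Nrcam moved against Chl1 in these cells. It was at 144, 146 and 158 CPM in WT, 133, 153, 153 and 156 in Het and 190, 176 and 203 in KO embryos, with KO above all others (0.36 ± 0.07, adjusted p = 0.011, but 0.43 and 0.272 in the fit with the prefix as a term). Against Het embryos it was 0.34 ± 0.06 (0.0461), a call that was lost on leaving out any single embryo, at 0.29 to 0.38, and against Het embryos 1 to 3 within 1 prefix (0.36, 0.0866). In cluster 15 contactins 3 to 6 were not called, with Cntn4 and Cntn6 lower in KO than in WT embryos as given above. Over the whole class they were also not called. Cntn6 was at 5.41, 9.04 and 7.89 CPM in WT, 1.54, 5.92, 9.07 and 5.67 in Het and 1.77, 4.20 and 5.25 in KO embryos (-0.96 ± 0.45, 0.201). Cntn5 was at 16.7, 26.0 and 23.3 CPM in WT, 3.91, 13.2, 15.0 and 17.0 in Het and 17.8, 18.2 and 26.5 in KO embryos (-0.06 ± 0.32, 0.929). Het embryo 1 was low for these genes, and it also had 39 cells of cluster 15, where they were most abundant, against 88 to 279 in the other embryos. Of the 10 members 2 were called in KO against WT where 7.36% of 13251 genes were, 2 in KO against Het where 0.445% were, and 0 by edgeR in Het against WT, where 0.00% were; in the last, 3 of 10 were at an unadjusted p under 0.05, as 12.7% of all genes were. The medians were -0.24 in KO against WT and -0.02 in KO against Het.

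Cajal-Retzius-like cells, the Reln-expressing neurons of the marginal zone, had the opposite change of Chl1. It was at 254, 295 and 284 CPM in WT, 253, 331, 334 and 286 in Het and 361, 439 and 392 in KO embryos, all KO embryos lying above the others. The log2 fold change was 0.53 ± 0.10 against WT (adjusted p = 0.00219; 0.42 and no longer called once the prefix was a covariate) and 0.40 ± 0.09 against Het (0.0373), the latter lost without WT embryo 3, Het embryo 1, Het embryo 4, KO embryo 2 or KO embryo 3, at 0.33 to 0.41, and against Het embryos 1 to 3 within 1 prefix (0.37, 0.072). Nfasc, which has its highest level in this class, was at 282, 272 and 297 CPM in WT, 248, 232, 262 and 240 in Het and 200, 193 and 232 in KO embryos (-0.42 ± 0.09, 0.00433; -0.47 and no longer called once the prefix was a covariate). Only the WT embryos were clear of both other groups, since 1 Het and 1 KO embryo had the same 232 CPM. Cntn4 was called higher on 11 UMIs in WT and 40 in KO (2.27 ± 0.51, 0.00999), and not without WT embryo 2 (1.96) or KO embryo 3 (2.0) or in the fit with the prefix as a term (3.32). Of 9 members tested 3 were called where 5.46% of 10506 genes were, and 1 of 9 in KO against Het where 0.980% were.

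In radial glia-like cells Chl1 and Cntn1 were lower in KO embryos, and Chl1 also in Het embryos. Radial glia are the stem cells of the cortex. Whether the class also holds other glial progenitors was not tested. At the finer resolution it had 1558 cells instead of 1687. There 145 cells formed an oligodendrocyte precursor-like class, which the main clustering did not have. Chl1 was at 86.6, 84.3 and 82.9 CPM in WT, 28.7, 63.9, 35.0 and 49.9 in Het and 26.6, 39.1 and 42 in KO embryos. Cntn1 was highest in this class in the main clustering, but in layer V-VI-like cells at the finer resolution. In radial glia-like cells it was at 74.4, 76.9 and 60.9 CPM in WT, 30.3, 65.1, 51.1 and 32.2 in Het and 33.3, 19.7 and 33.0 in KO embryos. The WT embryos lay above all KO embryos for both genes and above all Het embryos for Chl1, and the Het and KO ranges overlapped. The log2 fold change in KO was -1.21 ± 0.20 for Chl1 (adjusted p = 0.00057; -0.98 and no longer called once the prefix was a covariate) and -1.20 ± 0.22 for Cntn1 (0.0013; -0.87 and not called at the finer resolution). In Het embryos Chl1 was at -0.93 ± 0.19 (0.0173), lost without WT embryo 1, 2 or 3 or Het embryo 1 at -0.95 to -0.77 and with the prefix as a covariate at -0.77. Cntn1 was not called in Het against WT, where Het embryo 2 lay above WT embryo 3. Het embryo 4 alone against WT was at -0.76 for Chl1 and -1.14 for Cntn1. Of 8 members tested 2 were called in KO against WT where 21.1% of 11872 genes were, and 1 in Het against WT where 2.70% were, with a median of -0.49 in both.

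The level of Chl1 in erythroid-like cells, which should not express it, moved with these values. It was at 34.0, 29.2 and 34.2 CPM in WT, 16.1, 10.8, 19.5 and 11 in Het and 3.41, 3.04 and 4.41 in KO embryos, the last from 5, 4 and 5 UMIs. The groups did not overlap. The TMM factors of this class ran from 0.424 in a KO to 1.97 in a WT embryo, and on the TMM scale of the test Chl1 was at 17.8 to 21.9 in WT and 5.92 to 8.08 in KO embryos. It was called in KO against WT there (-1.43 ± 0.37, adjusted p = 0.0123; lost without KO embryo 1, 2 or 3 at -1.50 to -1.30), as 1 of 4 members tested, where 11.6% of 2359 genes were called. In microglia-like cells Chl1 was at 54.4, 85.2 and 163 CPM in WT, 14.8, 30.4, 47.6 and 32.9 in Het and 18.1, 5.98 and 10.6 in KO embryos (-2.86 ± 0.57, 0.0262; lost without WT embryo 2 or 3 or KO embryo 1, 2 or 3 at -3.37 to -2.34 and with the prefix as a covariate at -2.73), the only member with enough counts for a test, where 1.52% of 4268 genes were called. In endothelial-like cells 0 of 5 members tested were called by edgeR (4 at an unadjusted p under 0.05), where 0.453% of all genes were, and their median was -2.0. The KO embryos there were unlike: Chl1 was at 0.831, 35.0 and 1.83 CPM and Nrcam at 2.49, 29.1 and 5.50 CPM. KO embryo 2 was within the WT range for Chl1, above it for Nrcam and below it for L1cam, Nfasc and Cntn2. Free RNA in the droplets is counted in such cells, and its part in the lower Chl1 of radial glia-like cells was not tested.

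Intermediate progenitor-like cells, marked by Eomes, had 2 of 6 members called in KO against WT where 14.6% of all genes were, and 1 of 6 in KO against Het where 2.84% were. L1cam was at 66.1, 64.4 and 49.6 CPM in WT, 66.9, 60.7, 71.8 and 63.7 in Het and 71.1, 74.1 and 74.9 in KO embryos (0.33 ± 0.10, adjusted p = 0.0237; lost without WT embryo 3 at 0.22, KO embryo 2 at 0.33 or KO embryo 3 at 0.32, and with the prefix as a covariate at 0.26). Cntn5 was at 5.31, 6.35 and 5.77 CPM in WT, 5.86, 4.26, 5.36 and 6.37 in Het and 3.69, 1.40 and 3.27 in KO embryos (-0.94 ± 0.32, 0.049), a call lost in 12 of 21 settings, among them without WT embryo 1, 2 or 3, Het embryo 1 or 3, or KO embryo 2 or 3 (-1.04 to -0.68) and with the prefix as a covariate (-0.66). KO embryos were above every WT embryo for L1cam and below every WT embryo for Cntn5. Nrcam was higher in KO than in Het embryos (0.30 ± 0.08, 0.0412), lost without WT embryo 3, Het embryo 1, 2 or 3, or any KO embryo (0.24 to 0.32), and called against Het embryos 1 to 3 within 1 prefix (0.34, 0.0181). In dividing progenitor-like cells 1 of 7 members was called where 7.69% of all genes were: Cntn1 at -3.13 ± 0.87 (0.0426). Of its 321 UMIs in WT embryos 279 came from WT embryo 1, at 53.2 CPM against 6.69 and 2.29 in the others, and without that embryo the change was -0.93 and not called. At the finer resolution it was -0.03, and with the prefix as a covariate -1.95, neither of them called.

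Striatal inhibitory-like cells had 4 of 9 members called in KO against WT where 16.9% of all genes were, and each of the 4 calls was lost with the prefix as a covariate, a fit in which 1.14% of all genes were called. L1cam (-0.30 ± 0.09, adjusted p = 0.0233), Nfasc (-0.28 ± 0.09, 0.0274) and Cntn1 (-0.70 ± 0.16, 0.0056) were lower, and Cntn6 was higher on 10 UMIs in WT and 32 in KO (1.97 ± 0.64, 0.0392). The call of L1cam was also lost without WT embryo 1 or 2 or KO embryo 2 or 3 (-0.30 to -0.23), that of Nfasc without WT embryo 1 or 3 or KO embryo 2 (-0.29 to -0.23) and that of Cntn6 without any single WT or KO embryo (1.72 to 2.37). With the prefix as a covariate the changes were -0.14 for L1cam, -0.05 for Nfasc, -0.54 for Cntn1 and 1.51 for Cntn6, and at the finer resolution -0.17 for L1cam, -0.08 for Nfasc and -0.42 for Cntn1, also not called. Cntn5, abundant in this class, did not pass, although every KO embryo (39.6, 25.5 and 34.6 CPM) was below every WT embryo (49.5, 44.2 and 50.3 CPM). The Het embryos overlapped both groups (56.4, 30.8, 30.9 and 44.9 CPM).

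**Figure D5:**
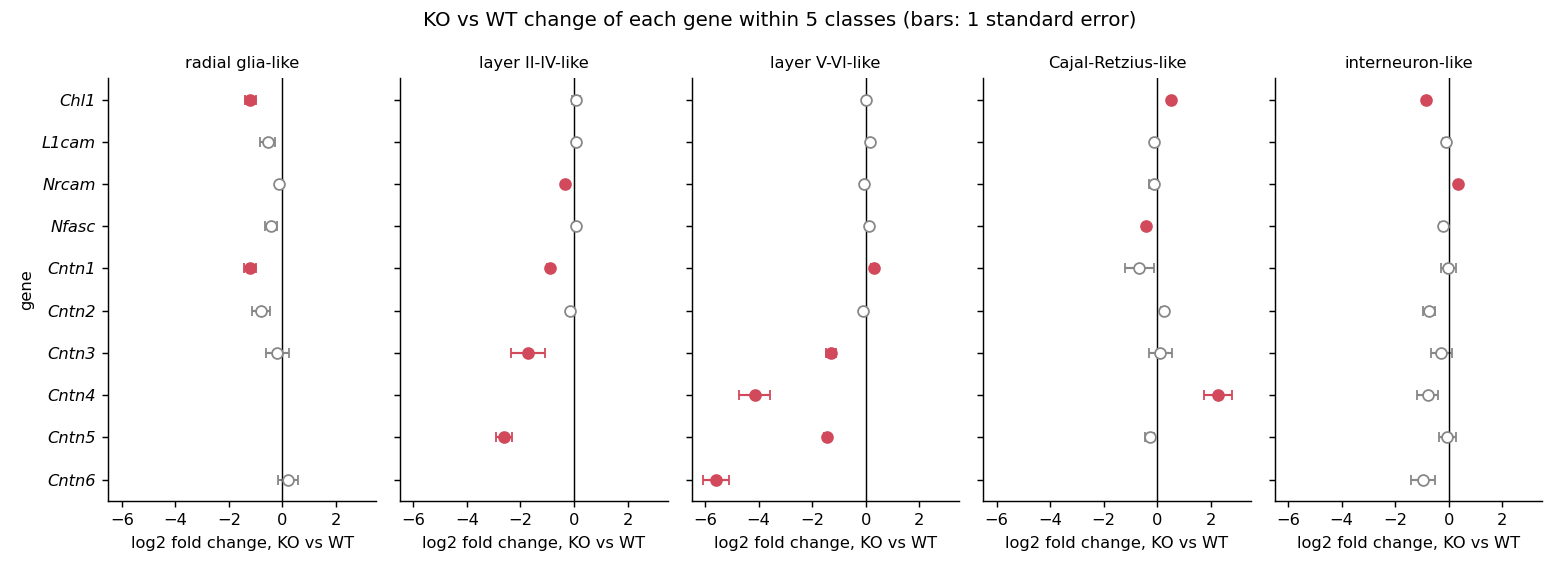
Log2 fold change of each gene in KO against WT embryos within 5 classes; bars are 1 SE, filled red points were called and genes without a point had too few counts. Cntn6 (-5.60) and Cntn4 (-4.14) stand far to the left in layer V-VI-like cells, and Chl1 lies on opposite sides of 0 in interneuron-like (-0.87) and Cajal-Retzius-like cells (0.53).

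Whether a change differed between 2 classes was tested itself, as the interaction of class and genotype with the embryo as a block, for 3 pairs of classes. Of the 10 members, 3 passed between layer II-IV-like and layer V-VI-like cells where 16% of all genes did (Cntn1, Cntn5 and Cntn6, the last with too few counts for a test in layer II-IV-like cells), 4 between layer II-IV-like and interneuron-like cells where 5.88% did, and 6 between layer V-VI-like and interneuron-like cells where 4.75% did. Chl1 had a lower change in interneuron-like cells than in either, by 0.95 ± 0.19 against layer II-IV-like (adjusted p = 0.00747) and 0.90 ± 0.09 against layer V-VI-like cells (5.69e-05). The change in layer V-VI-like minus that in interneuron-like cells was -4.52 ± 0.68 for Cntn6 (0.0018), -3.25 ± 0.44 for Cntn4 (0.000964), -1.40 ± 0.30 for Cntn5 (0.0167) and -0.39 ± 0.09 for Nrcam (0.0235). Cntn3, at -1.30 in one and -0.27 in the other, was not among those that passed. Layer II-IV-like minus layer V-VI-like cells gave -1.14 ± 0.28 for Cntn5 (0.00844), but 0.65 at the finer resolution (0.0308), -0.10 without integration (0.819) and -0.89 without KO embryo 3 (0.0796), so that the order of these classes turned with the clusters. For Cntn1 the difference was -1.19 ± 0.12 (3.87e-06). It was -1.07 with the prefix as a covariate (0.00507), a fit in which its rise in layer V-VI-like cells was not called (0.04). For Cntn6 the difference of 5.67 ± 0.94 (0.000388) is the layer V-VI-like fall set against layer II-IV-like cells, in which Cntn6 had 11 UMIs in WT and 11 in KO embryos (0.142 and 0.156 CPM). Nothing is read from it about layer II-IV-like cells. Nfasc differed from interneuron-like cells by 0.27 ± 0.07 in layer II-IV-like (0.0409) and 0.34 ± 0.08 in layer V-VI-like cells (0.028), and both were lost with the prefix as a covariate (0.12 and 0.15) and on leaving out single embryos, among them WT embryos 2 and 3 and KO embryos 1 and 2 for each (0.25 to 0.34). With that covariate the differences of Chl1 between layer II-IV-like and interneuron-like cells (0.55), of Cntn6 between the layer classes (7.36) and of Cntn5 (-2.05) and Nrcam (-0.45) between layer V-VI-like and interneuron-like cells did not pass. The last pair was also lost at the finer resolution (-1.0 and -0.35) and on leaving out single embryos: WT embryo 1 and KO embryos 2 and 3 for Cntn5 (-1.37 to -1.27), WT embryos 1 and 2 and KO embryos 1 and 3 for Nrcam (-0.40 to -0.33). That of Cntn6 between the layer classes was also lost without integration (2.93).

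Of 43 genes for binding partners and proteases of these proteins, in 6 lists, 13 were called over all cells in KO against WT (4 higher, 9 lower), where 24.5% of all genes were, with a median of -0.02 against -0.01. Tnr encodes tenascin-R, a matrix ligand of contactin 1. It was at 31.6, 31.6 and 30.1 TMM-scaled CPM in WT, 20.9, 21.3, 21.6 and 22.5 in Het and 13.0, 11.5 and 13.6 in KO embryos. No group overlapped another, with log2 fold changes of -1.29 ± 0.06 in KO (adjusted p = 3.31e-07), -0.53 ± 0.05 in Het (0.00238) and -0.77 ± 0.06 in KO against Het (3.28e-05). Plxna4, a plexin that signals for class 3 semaphorins, was at 250, 224 and 214 in WT, 189, 191, 195 and 173 in Het and 144, 162 and 164 in KO embryos, also without overlap (-0.55 ± 0.07, 0.000205; Het -0.29 ± 0.06, 0.036; KO against Het -0.26 ± 0.06, 0.0334). These were the 2 of 43 genes called in Het against WT, where 2.98% of all genes were. That call of Plxna4 was lost with the prefix as a covariate (-0.40, 0.12). Against Het embryos 1 to 3, within 1 prefix, KO embryos were at -0.75 for Tnr (0.000217) and -0.29 for Plxna4 (0.00825), and Het embryo 4 alone against WT was at -0.47 and -0.40.

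The contactin-associated proteins, which pair with contactins in the same membrane, had 6 of 7 genes called and a median of -0.52, where 24.5% of all genes were called. None of these 6 calls stood with the prefix as a covariate. The same 24.5% stands beside the counts of the other lists below. Cntnap5b ranged from 1.21 to 1.58 TMM-scaled CPM (WT), 1.07 to 1.57 (Het) and 0.762 to 0.80 (KO) (-0.87 ± 0.16, adjusted p = 0.00205; KO against Het -0.75 ± 0.15, 0.0126; within 1 prefix -0.65, 0.0226). Cntnap5a (-0.86 ± 0.23, 0.0122), Cntnap3 (-0.67 ± 0.17, 0.011) and Cntnap2 (-0.30 ± 0.10, 0.0364) were also lower. Cntnap1, the partner of contactin 1 beside the node of Ranvier, was higher on 60 UMIs in WT and 96 in KO (0.88 ± 0.28, 0.0301), and Cntnap4 was higher by a change near the limit of a call (0.26 ± 0.06, 0.00679). Of 12 ankyrin, spectrin and cytoskeletal linkers 4 were called. Ezr was at 66.3, 59.4 and 58.4 in WT, 82.4, 66.0, 70.7 and 80.6 in Het and 88.6, 86.3 and 96.1 in KO embryos (0.56 ± 0.08, 0.000573), and Msn at 16.7, 16.2 and 17.2 in WT, 20.7, 17.5, 20.2 and 17.2 in Het and 22.7, 21.3 and 25.2 in KO embryos (0.47 ± 0.08, 0.0013; KO against Het 0.29 ± 0.07, 0.0361; within 1 prefix 0.25, 0.0825). Both encode proteins that tie membrane proteins to actin, and in both the KO embryos were above all others. Sptbn4 (-0.35 ± 0.07, 0.00381) and Ank1 (-0.31 ± 0.11, 0.0415) were lower. Among receptor phosphatases and the amyloid precursor family 1 of 5 was called, Aplp1 at 379 to 399 in WT and 290 to 308 in KO embryos (-0.40 ± 0.06, 0.000451). The other lists had 1 of 7 matrix and membrane ligands, 1 of 9 semaphorin co-receptor partners and 0 of 3 shedding proteases called in edgeR (1 of the 3 at an unadjusted p under 0.05). With the prefix as a covariate 3 of the 43 were called, Tnr (-1.22), Plxna4 (-0.70) and Ezr (0.70), where 8.31% of all genes were, and the other 10 calls were lost.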

How the data were processed

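The authors deposited, for each of the 10 embryos, a table of UMI counts per gene and barcode, made with Cell Ranger 6.0.2 on mm10 per the file headers and the submitters' processing notes; the values are raw counts, filtered to cells, without normalization. Barcodes under 1000 UMIs or above 10% mitochondrial UMIs were removed. Library sizes for the text were total UMIs of a set of cells (CPM) or TMM-scaled totals.

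Cells were integrated by reciprocal PCA in Seurat 5.3.0 (2000 variable genes, 30 components, resolution 0.4), with the 10 members, their partners and Gatad2b left out of the variable genes. A cluster was named from listed markers where its score was at least 0.5, at least 3 markers were detected in 10% of its cells and its leading genes did not go against the name. Where no class reached 0.5, a positive score was enough if at least 2 of the 10 leading genes were markers of the class. These limits were set after marker scores were seen, and clusters 6, 11, 14, 16, 20, 21 and 23 stayed unnamed. Scrublet's own threshold gave 0.0341% to 2.53% of cells as doublets. Instead, the cells with the highest Scrublet scores were marked, at an assumed rate that rises with the number of barcodes (4.80% to 8.31% of cells). This rate was 7.42% to 8.31% in WT and 4.80% to 5.85% in KO embryos. Marked cells were kept, and removed as an alternative. Classes needed 20 cells in every embryo.

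UMIs were summed per embryo and tested with edgeR 4.0.16 (filterByExpr, TMM, quasi-likelihood F-test, all 10 embryos in 1 fit; limma 3.58.1, R 4.3.3), with Benjamini-Hochberg adjustment over all genes of a fit and calls below an adjusted p of 0.05 where the log2 fold change exceeded 0.25 in size. DESeq2 1.42.0 was an alternative. With classes of equal weight, CPM was averaged over the classes and log2 of CPM + 1 was tested with limma. All p-values measure the spread between embryos. Alternatives were another normalization and no filter, the library-name prefix as a covariate, values within 1 prefix (where Het embryo 4 alone is assumed to vary like the other embryos), other cell filters, no integration, resolution 0.8, leaving out each embryo and, added after the data were seen, leaving out cluster 14 and testing single clusters. The fits were tested on simulated data. Of genes with a true log2 change of 0.5 in size in KO against WT, 51.5% were called over all cells. Within classes, 68.0% were called in layer II-IV-like, 63% in layer V-VI-like and 29.3% in interneuron-like cells. A gene that was not called may thus still have changed, above all in interneuron-like cells. Intervals of UMI ratios are exact and cover counting error only.

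The members and lists were chosen with earlier results of these data known. All members are named over all cells, those called within a class, and up to 12 partner genes by size of change (Cntnap4, outside the 12, is added to complete its list).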

Additional observations from a re-analysis of the deposited data

Results flagged for a closer look

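Changes in KO against WT that differed between classes of cells, by the test of the difference itself, were found for 7 of the 10 genes. This count joins all pairs of classes, and no share of all genes was taken over the joined pairs. It is therefore a description only, and the shares for each pair are given with the tests above. Layer II-IV-like minus layer V-VI-like cells gave a log2 difference of 5.67 for Cntn6, which had too few counts for a test in layer II-IV-like cells (11 UMIs in WT and 11 in KO), -1.14 for Cntn5 (0.65 at the finer resolution) and -1.19 for Cntn1. Layer II-IV-like minus interneuron-like cells gave 0.27 for Nfasc, 0.95 for Chl1, -2.55 for Cntn5 and -0.69 for Nrcam. Layer V-VI-like minus interneuron-like cells gave 0.34 for Nfasc, 0.90 for Chl1, -4.52 for Cntn6, -3.25 for Cntn4, -1.40 for Cntn5 and -0.39 for Nrcam. With the library-name prefix as a covariate 6 of these 13 did not pass: Cntn6 between the layer classes (7.36), Nfasc (0.12) and Chl1 (0.55) between layer II-IV-like and interneuron-like cells, and Nfasc (0.15), Cntn5 (-2.05) and Nrcam (-0.45) between layer V-VI-like and interneuron-like cells.

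Between clusters of the same class, cluster 3 minus cluster 5 gave 0.83 for Cntn2, -0.95 for Chl1, -0.80 for Cntn5, -0.82 for Nrcam and -0.59 for Cntn1, cluster 3 minus cluster 7 gave -2.35 for Cntn5 and -0.70 for Nrcam, cluster 5 minus cluster 7 gave -0.77 for Cntn2, 1.02 for Chl1, -1.51 for Cntn5 and 0.44 for Cntn1, and cluster 0 minus cluster 2 gave 0.37 for Cntn2, 0.17 for Nfasc, 0.61 for Chl1, 2.78 for Cntn5 and 0.80 for Nrcam.

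In 3 of 36 groups of 4 Het embryos that were looked at, 1 embryo lay far from the other 3; chance gives about 1 in 20. Het embryo 1 had 0.540 TMM-scaled CPM of Cntn4 over all cells against 1.58 to 1.64 in the others, and 133 CPM of Nrcam in interneuron-like cells against 153 to 156. Het embryo 2 had 11.2 CPM of Cntn1 in layer II-IV-like cells against 8.64 to 8.80.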

How the results depend on the processing

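At resolution 0.8 the difference of Cntn5 between layer II-IV-like and layer V-VI-like cells changed sign, from -1.14 to 0.65; the cause was not tested. Of the 13 differences between classes 5 stood in each of the 14 alternatives. Not every difference lost in some alternative is named above. None of the 46 single calls changed sign; 12 stood in every alternative tried and 34 were lost in at least 1, of which 22 on leaving out some embryo. With the library-name prefix as a covariate, the genes called fell over all cells from 4 to 0 (KO against WT) and from 1 to 0 (Het against WT), within classes from 25 to 11 and from 6 to 3, among partners from 13 to 3 and from 2 to 1, and for differences between classes from 13 to 7; the share of all genes called over all cells also fell, from 24.5% to 8.31% (KO against WT) and from 2.98% to 0.232% (Het against WT). The cause was not tested. Without the filter on low counts the calls within classes were 39 (KO against WT), 15 (Het against WT) and 14 (KO against Het, main 9). DESeq2 called 2 (Het against WT) and 3 (KO against Het, main 1) over all cells, where its share of all genes was 5.68% and 6.86% (main 2.98% and 5.50%), and 7 partners in KO against Het (main 4). For Het against WT over all cells the members called were 0 with only the groups compared, at 3000 UMIs and without marked doublets. They were 2 at 5% mitochondrial UMIs. The partners were 1 with only the groups compared. With classes of equal weight 0 of 17647 genes were called in this comparison, so that the 0 members and 0 partners there say nothing about them. For KO against Het the members were 2 at 5% mitochondrial UMIs. With equal weight, where 0.799% of all genes were called, the members were 0 and the partners 1. At resolution 0.8 the calls within classes in Het against WT were 3, and 6 of 10 genes kept their highest class. Where no share of all genes stands beside a count in this section, the count only describes how the calls moved with the setting.

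Leaving out 1 embryo gave, for Het against WT, 0 to 1 members over all cells, 4 to 10 within classes (10 without Het embryo 4) and 1 to 5 partners; for KO against WT 3 to 4, 16 to 26 and 10 to 14; for KO against Het 0 to 3, 6 to 9 and 2 to 5; and 9 to 16 differences between classes.

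With the replicate number as a block, Het against WT had 3 members over all cells, 12 within classes and 5 partners called, and KO against Het had 2 over all cells. Same-numbered embryos did not deviate together over all cells (r from -0.19 to 0.13, over 0.1 in 1 of 9 pairs). Within classes r reached 0.47 and at most 4 of 9 pairs were over 0.1, in interneuron-like and striatal inhibitory-like cells, so that in no set of cells did every pair deviate together, and the numbers were not taken to pair the samples. Depth limits Cntn3, Cntn4 and Cntn6: in layer V-VI-like cells of KO embryos 10 UMIs of Cntn6 and 8 of Cntn4 were counted in all.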
